A study of Mus musculus with 258 samples.

Results

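Endocrine progenitors of the E13.5 mouse dorsal pancreas (E, embryonic day) that had switched on Neurod1 were divided by how much Neurog3 RNA they still held. Of 221 single cells in the series, 103 had been sorted as Ngn3-high, and 89 of these carried Neurod1 at 10 CPM or more (CPM, a gene's read count scaled to a common total per cell, spike-in reads left out). The 89 cells were chosen by Neurod1 and split on Neurog3 into 49 cells at 1000 CPM or more, called earlier here, and 40 cells below it, called later. The other 14 Ngn3-high cells had no or little Neurod1, and none of the 118 Ngn3-low cells reached the Neurod1 minimum (highest 3.59 CPM). Earlier and later name 2 levels of Neurog3 at one embryonic day, not 2 times of collection.

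Neurog3 (Ngn3) is the basic helix-loop-helix factor that commits a duct-like progenitor to the endocrine fate, and it is expressed only briefly. Its target Neurod1 stays on as the cell leaves the epithelium, and Fev marks an intermediate state before hormones appear. Secretory granules, whose matrix is built from granins such as Chga and Chgb, and the enzymes that cut prohormones are assembled along this path toward alpha, beta, delta and other islet cells.

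The earlier cells comprised 28 WT and 21 Jmjd3-deleted cells, and the later cells 23 WT and 17 Jmjd3-deleted cells. The labels call the first genotype E13.5 WT and the second Pdx1-Cre with Jmjd3 fl/fl. Pdx1-Cre is a recombinase driven by a promoter that is active across the pancreatic epithelium, so the deletion was not limited to endocrine cells. No Cre is named for WT cells, so Cre and deletion cannot be told apart, and no animal or strain is named. Each genotype is therefore 1 sample, and the split was described without a test. Bulk libraries of cells sorted from reporter mice served as independent measurements, with 2 libraries each of Ngn3-low and Ngn3-high cells (E13.5, Ngn3-GFP) and of Ins1-RFP+ cells (E17.5). The 31 chromatin samples of the series were not used here.

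Depth was similar in the classes. Reads in genes per cell had a median of 721848 in earlier cells (418224 to 1949839) and 730736 in later cells (383144 to 1097485), spike-in reads made up 4.26% and 4.20%, and cells thinned to 350000 reads showed medians of 7591 and 7834 genes. No 2 cells held identical counts, and the closest pair had a correlation of 0.808. Kdm6b, which encodes Jmjd3, stood at 281 CPM in earlier and 263 CPM in later WT cells and at 106 and 117 CPM in deleted cells, summed over cells. The deposited counts are per gene and do not show which exons were removed. Markers of other cell types stayed low. Summed per cell, 11 white blood cell markers ranged from 0 to 133 CPM in earlier and 0 to 101 CPM in later cells, 10 endothelial markers from 0 to 72.3 and 0 to 59.9 CPM, 10 mesenchymal markers from 0 to 101 and 0 to 105 CPM and 8 red blood cell markers from 0 to 214 and 0 to 524 CPM, with medians of at most 2.18 CPM. Ptprc, Cdh5 and Pdgfra, which define the first 3 of these, were at 0 in both classes. The 8 neural crest and glial markers had medians of 2.01 CPM (0 to 120.2) and 6.04 CPM (0 to 354), with Erbb3 higher in later cells. The 8 liver markers had medians of 186 CPM (0 to 2338) and 559 CPM (0 to 4768), almost all of it Ttr, a transthyretin gene that islet cells also express, while Alb was at 0. The part of these other cell types in the differences below was not tested.

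Neurog3 itself, which set the classes, ranged from 1025 to 5158 CPM in earlier cells with a median of 2038, and from 0 to 938 CPM in later cells with a median of 48.4. The 3 cells nearest the threshold stood at 1025, 1030 and 1043 CPM above it and at 938, 887 and 857 CPM below it, so the distribution had no wide gap there. For Neurod1 the gap was wide, since the highest cell left out had 5.73 CPM and the lowest kept 37.2 CPM. Neurod1 differed little between the classes, with medians of 639 CPM (37.2 to 2251) and 870.2 CPM (122 to 1878). Later cells made up 45.1% of Neurod1-positive cells in WT (23 of 51, exact 95% Clopper-Pearson interval 31.1 to 59.7%) and 44.7% in deleted pancreas (17 of 38, 28.6 to 61.7%). The intervals, which cover counting error only, overlapped almost completely. By the number in the cell titles, whose meaning is not stated, the later share was 47.6% for number 1, 48.1% for number 5 and 35% for number 6.

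Fev and Chga, used to check the stage, were present in both classes but in more of the later cells. Chga, a granule matrix protein, reached 10 CPM in 29 of 49 earlier and 38 of 40 later cells, with medians of 77.1 CPM (0 to 2922) and 1252 CPM (0 to 4824). In the sums over cells it stood at 390.2 CPM (exact 95% Poisson interval 384 to 397) and 1446 CPM (1432 to 1459.7), a log2 ratio of 1.89. That ratio was 1.50 without title number 6 and 3.17 without title number 1. Fev, an ETS factor of endocrine progenitors, was found in 30 of 49 and 37 of 40 cells, with medians of 55.3 CPM (0 to 2389) and 243 CPM (0 to 1199.8). Its summed level was nearly equal at 413 and 394 CPM, with 5 earlier and 4 later cells at 1000 CPM or more. Both genes were found together in 25 of 49 earlier and 37 of 40 later cells.

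The earlier class was itself uneven. Of its 49 cells, 20 had Chgb below 100 CPM, with a highest value of 55.5, and 29 had it between 188 and 29676 CPM. In the 20 cells without much Chgb, Fev was found in 3 and Chga in 4 cells, Neurod1 had a median of 322 CPM and Neurog3 of 2538 CPM (1126 to 5158). In the other 29, Fev was found in 27 and Chga in 25 cells, Neurod1 had a median of 865 CPM and Neurog3 of 1811 CPM (1025 to 4107). The Neurog3 ranges of the 2 subsets overlapped over most of their length. The Chgb cut was set after its values were seen. Of the cells low in Chgb, 8 were WT and 12 deleted, and of the others 20 were WT and 9 deleted.

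**Figure D1:**
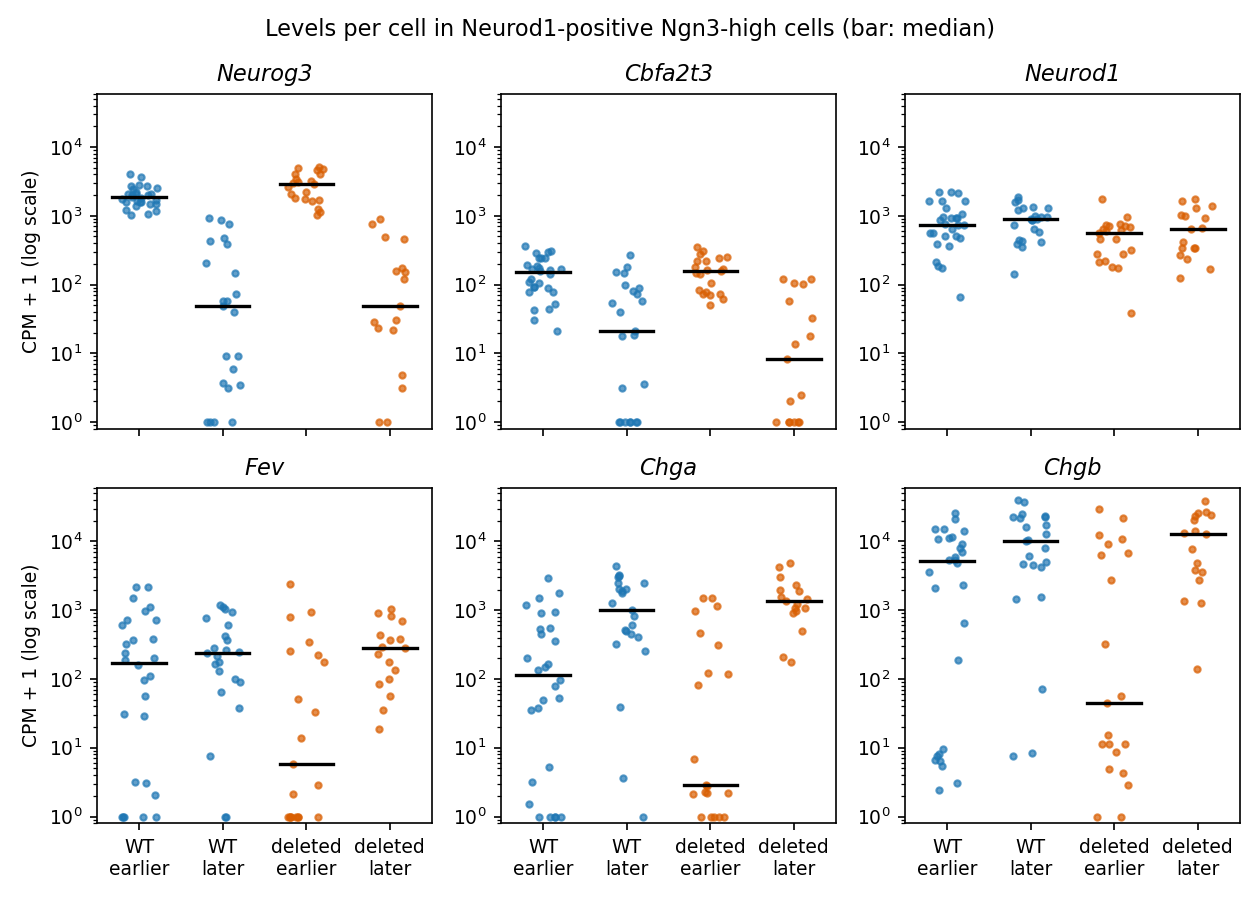
Levels of 6 genes in each of the 89 cells, as CPM + 1 on a log axis, by genotype and class, with a bar at the median. Neurog3 set the classes, Cbfa2t3 followed it in part, Neurod1 overlapped between classes, and Fev, Chga and Chgb had a cloud of near-zero earlier cells that held few later cells.

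Chga and Fev were found in a smaller share of earlier cells of the deleted genotype, while Chgb depended on the level asked for. Chga was found in 20 of 28 earlier WT cells (71.4%, interval 51.3 to 86.8%) and 9 of 21 earlier deleted cells (42.9%, 21.8 to 66%), and Fev in 20 of 28 and 10 of 21. Chgb was found at 10 CPM in 20 of 28 earlier WT and 15 of 21 earlier deleted cells, the same share of 71.4%, but stood at 1000 CPM or more in 18 of 28 earlier WT cells (64.3%, 44.1 to 81.4%) and 8 of 21 earlier deleted cells (38.1%, 18.1 to 61.6%). Neurog3 had a median of 1854 CPM in earlier WT and 2916 CPM in earlier deleted cells. Within title numbers, Chga was found in 9 of 11 WT and 5 of 11 deleted earlier cells for number 1, 6 of 8 and 3 of 6 for number 5, and 5 of 9 and 1 of 4 for number 6. The intervals overlapped, there is 1 sample per genotype, and no test was made. Of the later cells, 21 of 23 WT and 17 of 17 deleted cells held Chga.

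Across the transcriptome, 464 genes were at least 2-fold higher in later cells (5.88%) and 335 at least 2-fold lower (4.25%), of 7887 genes at 20 CPM or more in the higher class. The median log2 ratio of all 7887 was -0.00. The same direction in both genotypes and in each title number was shown by 374 of the higher and 298 of the lower genes that were also found in 25% or more of the cells of the higher class. The 12 of these with the highest ratios were Peg10, Papss2, Tmem27, Cx3cl1, Rai2, Dmrtc1a, A1cf, Gast, Gm2115, Muc4, Slc16a12 and Iapp.

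Peg10, an imprinted gene derived from a retrotransposon, had the highest log2 ratio with 1 CPM added to each side, a measure that holds down genes near 0 in earlier cells such as Gm2115 and Cx3cl1. It was found in 1 of 49 earlier cells, at 38 CPM, and in 16 of 40 later cells, with a highest value of 1180.0 CPM. The sums were 0.517 CPM (0.311 to 0.808) and 164 CPM (159 to 168), a log2 ratio of 6.76, and 6.68 to 6.92 when 1 title number or 1 genotype was left out. Papss2, which makes the sulfate donor used in sulfation, was found in 3 of 49 and 18 of 40 cells and stood at 1.93 and 234 CPM (log2 ratio 6.32, leave-out range 5.94 to 6.77). Tmem27 (collectrin), a membrane protein of islet cells, was found in 3 and 18 cells and stood at 2.31 and 189 CPM, with a log2 ratio of 5.84 that was 4.43 without title number 5 and 7.85 without title number 1. None of these genes was found in every later cell, so the high sums came from part of the class.

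A1cf, a cofactor of RNA editing, was the most widely found of the 12, in 3 of 49 earlier and 29 of 40 later cells, with sums of 2.29 and 129.9 CPM (log2 ratio 5.32, 4.71 without title number 5 and 6.38 without title number 6). Slc16a12, a creatine and monocarboxylate transporter, was found in 4 and 22 cells, and Rai2 in 1 and 20 cells. Slc16a12 was also found in 57.6% of Ngn3-low cells, at a sum of 40.6 CPM. Cx3cl1, the chemokine fractalkine, had no read in any earlier cell. It was found in 10 later cells at a sum of 45.3 CPM, at least 555-fold higher than the 0.0817 CPM that 3 reads over the earlier class would give. Gm2115, a gene of unassigned function, had 1 read in earlier cells and 997 in later cells, a ratio of 1268 with a counting interval of 227 to 50140.5. Muc4, a membrane mucin, was found in 2 and 17 cells, and Dmrtc1a in 1 and 14. Several of these ratios moved with single title numbers or genotypes, from 4.45 without title number 5 to 5.58 in deleted cells for Slc16a12, from 4.64 in deleted to 6.40 in WT cells for Rai2, from 3.75 in deleted to 6.07 in WT cells for Muc4 and from 4.55 without title number 5 to 6.02 without title number 1 for Dmrtc1a.

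The hormones among these 12 were Gast and Iapp. Gast, which encodes gastrin, was found in 1 of 49 and 12 of 40 cells, with 1 later cell at 3043 CPM, and stood at 0.517 and 52.2 CPM (log2 ratio 5.13, 3.68 without title number 5). Iapp, the amyloid peptide that beta cells secrete with insulin, was found in 4 and 15 cells, with 3 later cells at 1000 CPM or more, and stood at 3.97 and 131 CPM (log2 ratio 4.73, 2.63 without title number 5). Both sums therefore rested on few cells. Title number 6 alone gave a log2 ratio of 0.16 for Iapp.

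The 12 genes with the lowest ratios were Rasl11b, Wnt9a, Lipg, Timp3, Pitpnm2, Tgm7, Gc, Insig1, Olfml2b, Linchoxa1, Serpina1e and Plbd1. Rasl11b, a small GTPase of the Ras family, was found in 22 of 49 earlier cells (highest 336 CPM) and in 0 of 40 later cells (highest 3.74 CPM), with sums of 42.1 and 0.346 CPM and a log2 ratio of -5.00 (-5.56 in deleted cells, -4.50 in WT cells). Wnt9a, a secreted Wnt ligand, was found in 14 and 0 cells, at 24.4 and 0.242 CPM (log2 ratio -4.35, -5.16 without title number 1 and -3.27 without title number 5). Timp3, an inhibitor of matrix metalloproteinases, was found in 31 and 6 cells, at 138 and 14.3 CPM (log2 ratio -3.18, -5.58 in deleted and -2.27 in WT cells). Insig1, which restrains cholesterol synthesis, was found in 39 and 15 cells, at 253 and 37.8 CPM (log2 ratio -2.71, -4.54 in deleted and -1.94 in WT cells). Each of the 12 was at 0 in at least 1 earlier cell.

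Tgm7, a transglutaminase, reached the highest level in a single cell among the 12, with 25 of 49 earlier cells positive and a highest value of 2284 CPM against 7 of 40 and 475 CPM in later cells (log2 ratio -2.93, -2.17 without title number 1). Lipg, endothelial lipase, was found in 19 and 1 cells (log2 ratio -3.43, -5.43 in deleted and -2.67 in WT cells), and Pitpnm2 in 26 and 5. Linchoxa1, a noncoding RNA next to the Hoxa cluster by its name, was found in 31 and 6 cells. Gc, the vitamin D binding protein, was found in 16 and 2 cells (-4.25 in deleted and -2.34 in WT cells), Plbd1 in 17 and 5 (-3.66 and -1.91) and Olfml2b in 16 and 6. Serpina1e belongs to a family of near-identical copies, between which the authors' counting could split reads, so its 179.5 and 28.5 CPM are uncertain.

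**Figure D2:**
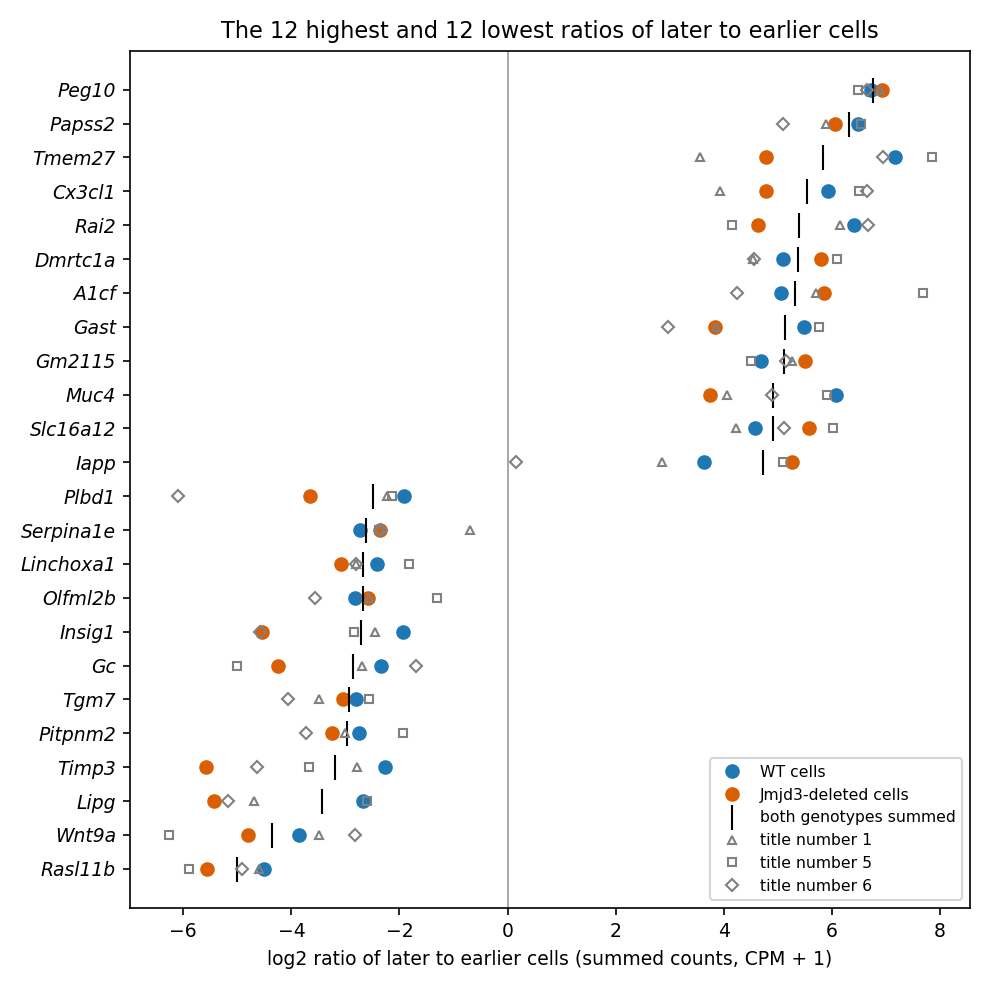
Log2 ratios of later to earlier cells (1 CPM added to each side) for the 24 genes with the highest and lowest ratios, with WT and deleted cells as filled points, both genotypes summed as a tick and title numbers as open marks. These genes were chosen on these ratios and on a shared direction, so all marks of a gene lie on one side of 0, with Iapp in title number 6 closest to it.

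Within the later class the 12 highest-ratio genes were found mainly in cells with very little Neurog3. A cell with Neurog3 under 100 CPM held a median of 8 of them at 10 CPM or more (n = 24 cells, 0 to 11), and 16 of the 24 cells held 6 or more. A cell between 100 and 1000 CPM held a median of 1 (n = 16, 0 to 11), with 2 of 16 at 6 or more, close to the median of 0 in the 47 cells between 1000 and 5000 CPM (0 to 4). Papss2 was found in 16 of 24, 2 of 16 and 2 of 47 cells in these strata, and Peg10 in 13 of 24, 3 of 16 and 1 of 47. Chga had medians of 1930 CPM, 474 CPM and 77.1 CPM, and Peg3, an imprinted zinc finger gene, of 5207, 3119 and 1549.5 CPM. The genes were picked on the contrast across 1000 CPM, so these values are a description.

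The 12 lowest-ratio genes were counted in the same strata, of which those under 1000 CPM belong to the later class that chose them. A cell between 100 and 1000 CPM of Neurog3 held a median of 2 of the 12 low-ratio genes (0 to 7) and a cell under 100 CPM a median of 1 (0 to 2), against 5 between 1000 and 5000 CPM (0 to 12). Amotl2, a junction protein of the Hippo pathway, had medians of 742 CPM between 1000 and 5000, 143 CPM between 100 and 1000 and 1.14 CPM under 100. Insig1 had a median of 4.28 CPM in the middle stratum, against 106 CPM above it. Ngn3-high cells without Neurod1, which took no part in the split, held a median of 7 low-ratio genes (n = 14, 4 to 9) and 0 high-ratio genes (0 to 3), close to the earlier cells. Ngn3-low cells held medians of 3 (n = 118, 0 to 6) and 2 (0 to 4).

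**Figure D3:**
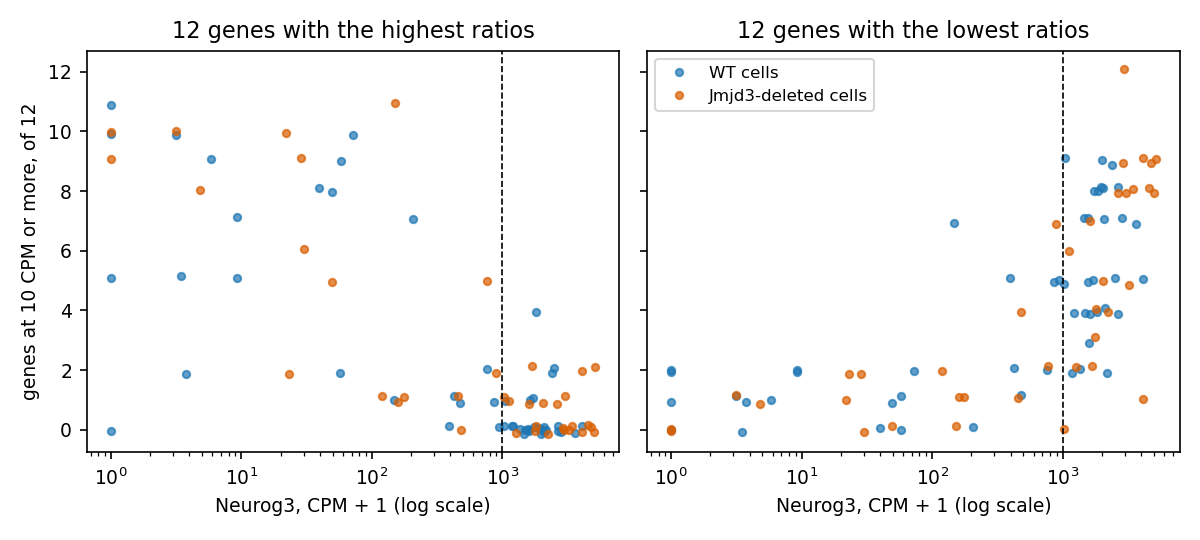
Number of the 12 highest-ratio genes (left) and the 12 lowest-ratio genes (right) found at 10 CPM or more in each cell, against Neurog3 as CPM + 1 on a log axis, with a dashed line at the 1000 CPM threshold. Points are shifted by at most 0.15 for legibility. Counts of 6 or more high-ratio genes occurred in 18 of 40 later cells and in 0 of 49 earlier cells.

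The gene whose level followed Neurog3 most closely over the 89 cells was Cbfa2t3, a corepressor of the ETO family, with a Spearman correlation of 0.71. Next came Gadd45g (0.68), a stress and cell cycle gene, Amotl2 (0.68), Smarcd2 (0.67), a subunit of the SWI/SNF remodeller, and Btbd17 (0.67). The strongest opposite patterns were those of Fam183b (-0.73), Cxxc4 (-0.68), Akr1c19 (-0.67), Klhl32 (-0.67), A1cf (-0.66) and Chga (-0.65). Over 7886 genes the correlations ran from -0.73 to 0.71, with a median of -0.01. Cells share a library preparation and a depth, so these values are descriptions. Cbfa2t3 was found in all 49 earlier cells (20.1 to 361 CPM, median 155) and in 22 of 40 later cells (0 to 265 CPM, median 16.6), and the classes overlapped.

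Promoter sequence was examined for the named genes, because basic helix-loop-helix factors such as Neurog3 and Neurod1 bind E-boxes. The motif searched was CAGATG, or CATCTG on the other strand, in the 250 bases before each gene start of RefSeq on GRCm38.p6. It was present in 14.4% of 32851 promoters and for 16.3% of 27025 genes, for 6 of the 53 named genes with a promoter in that table (11.3%), for 1 of 9 of the highest-ratio genes and for 1 of 10 of the lowest-ratio genes. These counts are small and cover 53 of the 71 named genes, so no difference from all genes is read from them. The 6 named genes with a match were Cbfa2t3, Gcg, Iapp, Ins1, Muc1 and Olfml2b. Gast, Pyy, Sst, Ppy and Ghrl had a promoter in that table but no match, and Ins2 had no promoter there. The 3 examples below read along the gene's own strand, with the motif in capitals, at chr8:122699251-122699316 (minus strand) for Cbfa2t3, chr6:142298284-142298349 (plus strand) for Iapp and chr19:52264183-52264248 (plus strand) for Ins1. The motif begins 177, 111 and 84 bases before the gene start.
Cbfa2t3: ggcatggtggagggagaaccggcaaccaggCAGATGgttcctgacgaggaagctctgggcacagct
Iapp: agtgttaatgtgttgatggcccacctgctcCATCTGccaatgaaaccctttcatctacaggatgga
Ins1: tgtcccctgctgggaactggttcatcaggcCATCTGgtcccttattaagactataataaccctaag
A match is a description of these letters and not evidence of binding.

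Genes known from the Neurog3 stage were lower in part. List counts in later against earlier cells, here and below, cover all listed genes. Only genes past the level filter of 20 CPM in the higher class could be called. Of the 7887 genes past it, 5.88% were higher and 4.25% lower. The Neurog3 stage list holds Neurog3 itself, which set the classes, so its fall and its part in the list median were fixed in advance. Of 20 listed genes 0 were at least 2-fold higher and 7 at least 2-fold lower in later cells. The median log2 ratio was -0.84 over the 18 past the level filter, and Neurog3 is among the 7. Besides Neurog3 these were Amotl2 (730.4 and 155 CPM), Cbfa2t3 (153 and 48.1 CPM), Btbd17 (531 and 191 CPM), Gadd45a (381 and 138 CPM), Mfng (396 and 196 CPM), which modifies Notch receptors, and Nhlh1 (54.9 and 19.4 CPM). Mfng stayed within 2-fold in WT cells, at a log2 ratio of -0.72. The factors Nkx2-2 (296 and 224 CPM), Insm1 (156 and 134 CPM) and Myt1 (223 and 216 CPM) stayed within 2-fold, as did Hes6 (569 and 320.2 CPM). In the Notch list, with 5 of 19 genes past the filter, 0 were higher and 1 lower, Numbl (52.3 and 22.4 CPM). Numbl, a homologue of the fate determinant Numb, had a log2 ratio of -1.19 that turned to 0.05 with the Neurog3 threshold at 2000 CPM.

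Granule genes were higher in later cells. In the granin list 6 of 8 genes passed the level filter, and these 6 were at least 2-fold higher and 0 lower, with a median of 1.70. The list also holds Scgn (secretagogin), a calcium-binding protein that is not a granin. Chgb had the highest level and a log2 ratio of 1.02 (0.83 in WT cells), with a median of 2299 CPM in earlier cells (0 to 29676) and 10308 CPM in later cells (6.65 to 40468). Scg5, a chaperone of the convertase Pcsk2, stood at 13.8 and 59.8 CPM (log2 ratio 2.04, 3.03 without title number 1), Pcsk1n at 54.7 and 186 CPM (1.75, 2.93 without title number 1), Scgn at 91.2 and 289.7 CPM and Scg3 at 114 and 312 CPM.

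Among 9 prohormone processing genes, 7 of them past the level filter, 3 were higher and 0 lower. Pcsk2, the convertase that makes glucagon and completes insulin, was found in 14 of 49 and 24 of 40 cells and had medians of 1.43 CPM (0 to 232) and 96.7 CPM (0 to 2518), and its log2 ratio was 3.85. Pam, the enzyme that amidates peptides, stood at 132 and 798 CPM, and Cpe, the carboxypeptidase that trims cut prohormones, at 654 and 1790.3 CPM. Pcsk1, the other main convertase, stayed within 2-fold at 241 and 391 CPM.

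Of 24 genes of the granule membrane and exocytosis 4 were higher and 0 lower, namely Ptprn (4.55 and 64.4 CPM, log2 ratio 3.56, 4.56 without title number 1), Rab27a (33.7 and 137 CPM), Rab3a (30.2 and 82.2 CPM) and Snap25 (37.1 and 88.9 CPM). Rab27a and Rab3a tether granules at the membrane, and Snap25 is part of the fusion machinery. Rab3a had a log2 ratio of 0.51 in WT cells and 2.64 in deleted cells, and Snap25 of 0.94 and 1.51. The list median was 0.32, with 15 of the 19 genes past the level filter within 2-fold.

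Several islet lineage factors were higher in later cells. Of 10 beta and delta lineage factors, 7 of them past the level filter, 4 were higher and 0 lower. Mnx1, a homeobox factor needed for beta cells, was found in 3 of 49 and 19 of 40 cells and stood at 2.12 and 23.9 CPM (log2 ratio 2.99, 2.16 without title number 1). Meis2 stood at 40.9 and 179.6 CPM, Tshz1 at 16.1 and 41 CPM (log2 ratio 1.30, 0.94 in WT and 2.00 in deleted cells) and Pdx1, the pancreatic and beta cell factor, at 142 and 303 CPM (1.09, 0.66 in WT and 1.54 in deleted cells). In WT cells alone Tshz1 and Pdx1 thus stayed within 2-fold. Nkx6-1 was nearly level at 181 and 168 CPM, and Mafa had no read in either class.

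Foxp1, a forkhead factor of the alpha lineage list, stood at 56.8 and 189.6 CPM (log2 ratio 1.72, 2.44 in deleted cells). Foxp1 and Meis2 were also widespread in Ngn3-low cells, at sums of 146 and 109 CPM and in 98.3% and 90.7% of cells. Irx2, a later alpha gene, had no read in earlier cells and was found in 8 later cells at a sum of 7.38 CPM, at least 90.3-fold higher than the floor of 3 reads. Pax4, a paired-homeobox factor of the beta and delta lineages, was found in all 49 earlier cells and in 37 of 40 later cells, with sums of 853 and 519 CPM.

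Peg10 was found in 16 and Tmem27 in 18 later cells, and both in 14, while Papss2 and Peg10 were found together in 12 of 40. Of the 22 general endocrine factors 15 passed the level filter, and 2 of these were higher, beside 5.88% of all genes past it, and 0 lower. Peg3 had medians of 1489 CPM (89.3 to 4513) and 4027 CPM (235 to 11769.6), with a log2 ratio of 1.11 that was 0.88 in WT cells. It was not particular to later cells, since Ngn3-low cells held it at 4232 CPM in the sum and in 100% of cells. Isl1, found in 6 of 49 and 22 of 40 cells, stood at 105 and 324 CPM.

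Few cells held a hormone gene at a high level. Any of Ins1, Ins2, Gcg, Sst, Ghrl, Ppy and Pyy reached 1000 CPM in 2 of 49 earlier cells (4.08%, interval 0.498 to 14%) and 4 of 40 later cells (10%, 2.79 to 23.7%). At 100 CPM the counts were 10 of 49 (20.4%, 10.2 to 34.3%) and 13 of 40 (32.5%, 18.6 to 49.1%). Ins2 was found in 3 and 10 cells, with a highest later value of 1187 CPM and sums of 2.04 and 65.3 CPM (log2 ratio 4.45, 2.54 without title number 5). Ins1 was found in 1 and 4 cells (0.735 and 15.5 CPM, log2 ratio 3.25, 1.50 without title number 5). Gcg was found in 5 and 2 cells, none above 36.7 CPM, with sums of 2.59 and 1.63 CPM. Pyy, an early gut and islet peptide, stood at 106 and 221 CPM, a log2 ratio of 1.05 that became -0.34 without title number 5 and 2.25 without title number 6.

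Sst (13 and 15 CPM) and Ppy (3.02 and 2.94 CPM) were level between the classes in their sums. Ghrl had no read in earlier cells and was found in 1 later cell at 149 CPM, of the deleted genotype. Its later sum was 4.43 CPM, at least 54.3-fold above the floor. Gip, the incretin peptide, had 1 read in earlier cells and was found in 4 later cells. Cck, which encodes cholecystokinin and is a known transcript of endocrine progenitors, was the most widespread peptide gene and went the other way. It was found in 47 of 49 and 32 of 40 cells, with medians of 770.2 CPM (0 to 1905) and 284 CPM (0 to 1890.0), and reached 1000 CPM in 22 earlier and 8 later cells. Over the 13 listed peptide genes, 6 of them past the level filter, 5 were higher (Gast, Gip, Iapp, Ins2 and Pyy) and 0 lower by 2-fold.

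Genes of beta cell function and of amine metabolism were partly higher. The level filter was passed by 9 of 16 beta function genes and 4 of 9 serotonin genes. Of 16 beta function genes 4 were higher, Papss2 among them, and 0 lower, with Abcc8, a subunit of the ATP-sensitive potassium channel, at 209 and 579.8 CPM, Ero1lb, an oxidase of insulin folding, at 33.7 and 98.9 CPM (log2 ratio 1.53, 0.98 in WT and 3.36 in deleted cells), and G6pc2 without a read in earlier cells and at 21.4 CPM in later ones. In the serotonin list 2 of 9 genes were higher. Gch1, which makes the cofactor of tryptophan hydroxylase, stood at 87.0 and 509 CPM, and Maob, which degrades amines, at 6.70 and 80.4 CPM (log2 ratio 3.40, 2.49 without title number 5 and 6.16 without title number 1). Tph2 and Slc6a4 had no read in either class.

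The trunk and duct list held more lower than higher genes, beside 5.88% higher and 4.25% lower of the 7887 genes past the level filter. That filter was passed by 13 trunk and duct genes and by 10 cell division genes. Of 19 trunk and duct genes 1 was higher and 3 lower, Krt19 (148 and 40.2 CPM), Sox9 (109.5 and 46.4 CPM, log2 ratio -1.22, -0.97 in WT cells), a factor of the duct progenitor, and Tead2 (147 and 56.1 CPM, log2 ratio -1.38, -0.66 in WT and -2.82 in deleted cells). Muc1, a mucin of the luminal surface, was the higher one at 19.2 and 47 CPM. Ngn3-low cells held Muc1 at a sum of 165 CPM and in 94.9% of cells. Of 30 cell division genes 2 were higher and 3 lower. The lower ones were the replication licensing genes Mcm3 (85.8 and 27 CPM), Mcm5 (69.8 and 25.7 CPM) and Mcm6 (137 and 55.3 CPM). Their log2 ratios were -1.63, -1.41 and -1.30. Mcm3 turned to 0.33 with the threshold at 2000 CPM and was -2.45 without title number 5, and without title number 1 Mcm5 was -0.48 and Mcm6 -0.83. The higher ones, Ccnb2 (3 of 49 and 2 of 40 cells) and Cenpa (15 and 10 cells), rested on few cells and had log2 ratios of 0.31 and -1.01 in deleted cells, and Mki67 was at 1.06 and 0.831 CPM.

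Cell cycle arrest genes were divided. The level filter was passed by 7 of 13 of them, 13 of 16 H3K27 methylation, 8 of 16 immediate early and 7 of 20 delamination genes. Gadd45g (238 and 59.4 CPM) and Cdkn1c (219.6 and 74.2 CPM, log2 ratio -1.55, -2.96 without title number 1) were lower, while Rb1 (13 and 42.9 CPM, log2 ratio 1.65, 0.90 without title number 1) and Cdkn1b (40.7 and 97.3 CPM) were higher, of 13 listed. Of 16 genes of H3K27 methylation, Ezh2 (73.7 and 33.3 CPM), the methyltransferase, and Cbx2 (84.0 and 35.8 CPM) were lower and 0 were higher. Both stayed within 2-fold in WT cells, at log2 ratios of -0.96 and -0.74. Kdm6b itself was level at 208 and 199 CPM. Of 14 genes of the unfolded protein response 0 were past 2-fold in either direction. Of 16 immediate early genes Fos was higher (71.5 and 209.9 CPM) and Egr1 lower (164 and 59.3 CPM), so this group, which responds to handling of tissue, had no common direction. In the list of delamination and cytoskeleton genes Vim (26.4 and 199 CPM, log2 ratio 2.87, 3.70 in deleted cells) and Cdh1 (82.2 and 229 CPM) were higher and Stmn1 (361 and 174 CPM, log2 ratio -1.05, -1.69 without title number 1 and -0.70 in WT cells) lower, of 20. Vim and Cdh1 were not particular to later cells. Ngn3-low cells held them at sums of 331 and 585 CPM, above both classes, and in 98.3% and 100% of cells.

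The bulk libraries showed where these genes stood in Ngn3-low, Ngn3-high and Ins1-RFP+ cells. A bulk Ngn3-high sample mixes earlier, later and Neurod1-negative cells, and in bulk, fewer cells of a type and less RNA per cell cannot be told apart. Of 15684 genes tested with edgeR's quasi-likelihood test and Benjamini-Hochberg adjustment at 0.05, 26.1% were higher and 24.9% lower in Ins1-RFP+ than in Ngn3-high cells, and 27.7% were higher and 30.2% lower in Ngn3-high than in Ngn3-low cells. Both comparisons use the same Ngn3-high libraries, and the first changes embryonic day and reporter together. Libraries within a group are not said to come from separate litters, so these tests measure the spread between the libraries.

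Genes lower in later cells were mostly lower again in Ins1-RFP+ cells. Of the 335, 236 were lower (70.4%) and 20 higher (5.97%) than in Ngn3-high cells, where 33.9% of the 7886 genes tested that passed the level filter in single cells were lower and 17.6% higher. The count of 20 became 13 without Ngn3-high library 1 and 13 without library 2. Of the 464 genes higher in later cells, 215 were higher (46.3%) and 89 lower (19.2%) in Ins1-RFP+ cells. Against Ngn3-low cells, 270 of the 464 were higher in Ngn3-high cells (58.2%) and 79 lower (17%), and 159 of the 335 were higher (47.5%) and 86 lower (25.7%), beside 37.3% and 19.2% of the 7886.

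Acinar genes in the Ins1-RFP+ libraries moved with this comparison. The 14 tip and acinar genes summed to 1460 CPM in library 1 and 22774 CPM in library 2, against 127 and 133 CPM in Ngn3-high cells, and 10 of the 12 tested were higher. Markers of white blood cells summed to 79.1 and 140.1 CPM against 16.6 and 8.91 CPM (10 of 11 higher), and those of endothelium to 57.5 and 67.4 CPM against 10.2 and 6.16 CPM (10 of 10 higher). Mesenchymal markers summed to 198 and 729 CPM against 64 and 97.1 CPM (8 of 8 higher). Leaving out Ins1-RFP+ library 2 does not remove them, since library 1 was above the Ngn3-high libraries in each of these sums. The Ngn3-low libraries were above the Ngn3-high libraries in these sums too. White blood cell markers summed to 3080 and 2512 CPM in Ngn3-low libraries and endothelial markers to 439 and 464 CPM. Mesenchymal markers summed there to 176 and 117 CPM and acinar genes to 768 and 681 CPM. The part of these other cell types in either bulk comparison was not tested.

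The 12 highest-ratio genes parted in the later bulk step. All 12 were higher in Ngn3-high than in Ngn3-low cells, beside 37.3% of the 7886 genes past the level filter. The 12 passed that filter only through later cells, themselves sorted as Ngn3-high, so this count is a description. In Ins1-RFP+ cells 5 of the 12 rose further, 5 fell and 2 did not pass, beside 17.6% higher and 33.9% lower of the 7886. Iapp was at 146 ± 52.7 CPM (SD, n = 2) in Ngn3-high and 7187 ± 1345 CPM in Ins1-RFP+ cells, higher by 5.62 on the log2 scale (SE 0.474) with an edgeR adjusted p of 4.46e-05. Papss2 was at 169 ± 38.3 and 879 ± 131 CPM, higher by 2.38 on that scale (SE 0.184) with an edgeR adjusted p of 2.93e-05. Muc4 rose from 44 ± 9.50 to 250.4 ± 10.2 CPM and Slc16a12 from 53.9 ± 13.8 to 162 ± 4.46 CPM. Tmem27 rose from 215 ± 40.4 to 318 ± 3.92 CPM (edgeR adjusted p = 0.0167), a call lost without Ngn3-high library 1, where its log2 fold change was 0.40.

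The 5 that fell were Gast, Peg10, A1cf, Cx3cl1 and Dmrtc1a. Gast went from 96.3 ± 8.79 to 5.19 ± 2.30 CPM, a log2 fold change of -4.23 (SE 0.352) with an edgeR adjusted p of 4.18e-05. Peg10 went from 5579 ± 642 to 525 ± 195 CPM, with -3.41 (SE 0.268) and an adjusted p of 3.21e-05 from the same edgeR fit, and A1cf from 98.7 ± 5.73 to 16.6 ± 5.85 CPM (log2 fold change -2.58). Cx3cl1 went from 31.8 ± 0.907 to 16.8 ± 3.13 CPM. Dmrtc1a went from 9.77 ± 0.895 to 5.89 ± 1.2 CPM (edgeR adjusted p = 0.0397), a call that was lost without either Ngn3-low library, either Ngn3-high library or Ins1-RFP+ library 1 (log2 fold changes -0.73, -0.73, -0.81, -0.64 and -0.53) and under DESeq2 (-0.70). Rai2, at 32.7 ± 3.12 and 48.8 ± 5.99 CPM, had an adjusted p of 0.0508 from edgeR and passed without either Ngn3-low library, without Ins1-RFP+ library 2 (log2 fold changes 0.58, 0.58 and 0.70), under DESeq2 (0.61), with the replicate number as a block (0.57) and with no expression filter (0.58). Gm2115, at 13.8 ± 4.55 and 8.77 ± 0.323 CPM, passed only with no expression filter (-0.65).

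Of the 12 lowest-ratio genes 8 fell in Ins1-RFP+ cells and 0 rose, beside 33.9% and 17.6% of the 7886 genes past the level filter. They were picked as high in earlier cells, themselves sorted as Ngn3-high. Against Ngn3-low cells 9 were higher and 1, Gc, lower in Ngn3-high cells, beside 37.3% and 19.2% of the 7886. Of those 9 calls, Timp3 was lost under DESeq2 (1.19), without either Ngn3-low library (1.19 and 1.16) and without Ngn3-high library 1 (1.01), Insig1 when library 1 of the Ngn3-low (0.98) or of the Ngn3-high (0.85) group was left out, and Serpina1e under DESeq2 (1.12). Tgm7 went from 2.77 ± 0.354 CPM in Ngn3-low to 271 ± 5.48 CPM in Ngn3-high and 2.40 ± 0.159 CPM in Ins1-RFP+ cells, high in the middle population and low in the others (edgeR adjusted p = 2.26e-07 and 4.19e-07). Serpina1e fell from 241 ± 49.3 to 1.47 ± 1.03 CPM and Lipg from 53.3 ± 6.09 to 0.599 ± 0.372 CPM. Linchoxa1, Wnt9a, Rasl11b, Timp3 and Plbd1 also fell. Insig1 (163 ± 20.2 and 134 ± 63.4 CPM), Pitpnm2 (168 ± 46.5 and 130.2 ± 11.8 CPM), Olfml2b (27.7 ± 3.39 and 30.2 ± 8.99 CPM) and Gc (18.4 ± 0.979 and 27.7 ± 14.8 CPM) did not pass. Without 1 library, Insig1 (-0.87 without Ins1-RFP+ library 2), Pitpnm2 (-0.63 without Ngn3-high library 2) and Gc (1.05 without Ins1-RFP+ library 1) did pass.

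**Figure D4:**
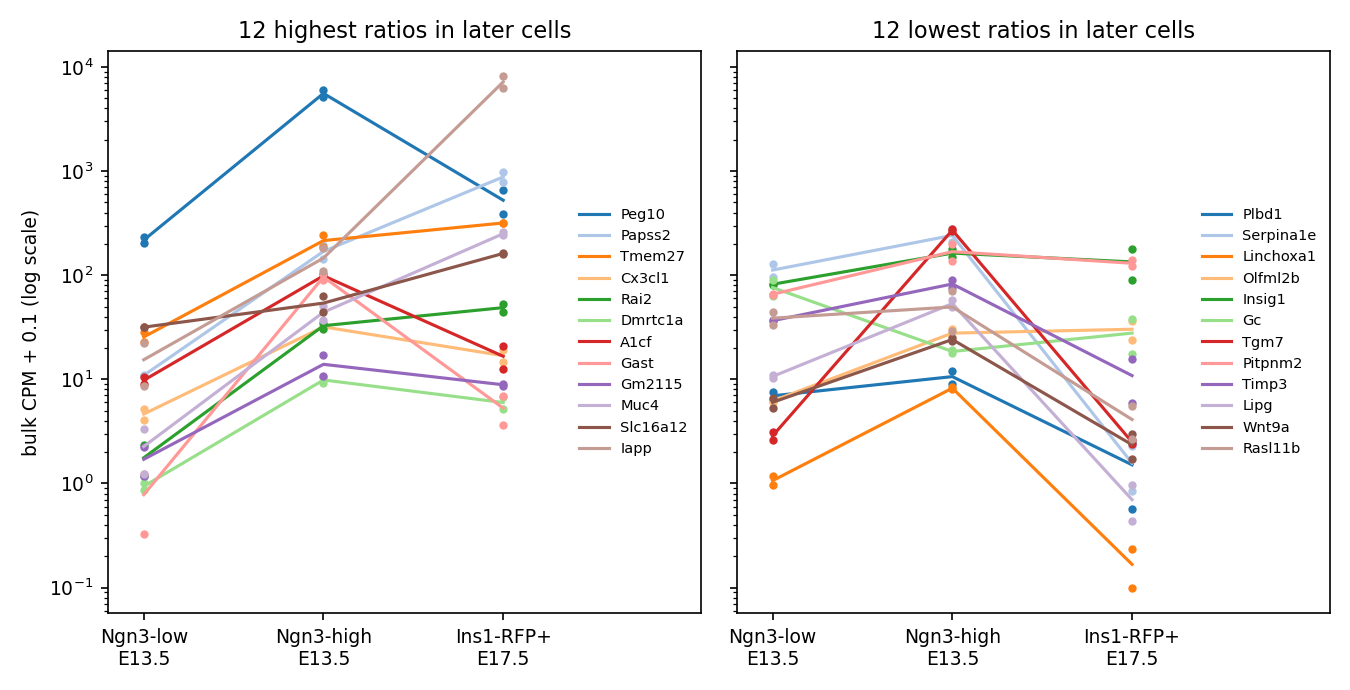
Bulk levels of the 12 highest-ratio genes (left) and 12 lowest-ratio genes (right) as CPM + 0.1 on a log axis in Ngn3-low, Ngn3-high and Ins1-RFP+ cells. Points are single libraries and lines join group means. High-ratio genes end on either side of their Ngn3-high level, with Iapp rising to 7187 CPM and Gast dropping to 5.19 CPM, while 8 of the low-ratio genes fell.

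The stage markers went different ways from Ngn3-high to Ins1-RFP+ cells. Neurog3 went from 167 ± 24.6 to 1142 ± 81.2 and 29.3 ± 1.26 CPM across the 3 bulk groups, in part by the sort on its reporter. Fev fell from 221 ± 37.6 to 32.6 ± 0.179 CPM in Ins1-RFP+ cells, Neurod1 stayed at 293 ± 51.4 and 295 ± 9.65 CPM, and Chga rose from 978 ± 8.03 to 4618 ± 929 CPM. Chgb, higher in later than in earlier cells, was lower in Ins1-RFP+ cells (8939 ± 688 and 2534 ± 293 CPM), with a log2 fold change of -1.82 (SE 0.218) and an edgeR adjusted p of 0.000276. Of the 20 genes of the Neurog3 stage 18 fell in this step and 0 rose, beside 24.9% and 26.1% of all genes tested. The 20 include Neurog3, on whose reporter the Ngn3-high cells were sorted.

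Other granule genes rose again, with Pcsk2 from 493 ± 91.1 to 3228 ± 254 CPM and Scg5 from 48.3 ± 0.659 to 410.1 ± 60.7 CPM. Of the 8 genes of the granin list 7 rose and 1, Chgb, fell, beside 26.1% and 24.9% of all genes tested. Mnx1 rose from 43.4 ± 5.12 to 70.7 ± 13.6 CPM, a change that did not pass without Ngn3-high library 1 (log2 fold change 0.60). Irx2 (90.0 ± 16.9 to 14.1 ± 8.70 CPM) fell, as did Pax4 (267 ± 49.9 to 8.70 ± 0.331 CPM). Pam and Vim, higher in later cells, fell in Ins1-RFP+ cells, Pam from 893 ± 98.8 to 577 ± 15.7 CPM and Vim from 211 ± 9.0 to 43.1 ± 15.1 CPM.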

How the data were processed

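Single cells were sequenced with a full-length protocol that adds ERCC spike-in RNA, and bulk RNA with a directional poly(A) kit, per the labels' protocols. The authors' deposited count tables give whole reads per gene for each cell and bulk library. TopHat2 2.1.0, Bowtie2 and HTSeq 0.6.0 on mm10 are named in the submitters' processing notes, and the strand setting is not given in the sources used here. The authors' deposited RPKM values per cell, scaled by depth and gene length, were used as an alternative only. All columns used matched a sample label, and gene names were those of the deposited tables.

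The 40824 genes without 92 ERCC rows were scaled to CPM per cell. Reads were summed over the cells of a class, 1 CPM was added to each side, and genes at 20 CPM or more in the higher class and 2-fold apart were counted. A gene was called found in a cell at 10 CPM or more. Exact Poisson intervals (sums) and Clopper-Pearson intervals (shares) at 95% cover counting error only, since reads carry no molecular identifiers. The split received no test, because Neurog3 chose the classes and each genotype is 1 sample. No doublet caller was run, since each cell had its own library. Named genes were Neurog3, Neurod1, Fev and Chga, 7 hormone genes, the 12 highest and 12 lowest log2 ratios among genes found in 25% or more of the higher class with one direction in both genotypes and in title numbers with 3 or more cells a class, and up to 3 such genes from each list past 2-fold. Other list members are printed where they passed 2-fold or are well-known members, and were picked after their values were seen. The cells, rule and gene lists were chosen with earlier results of these data known.

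The 6 bulk libraries (11957415 to 17760214 reads in genes) were fitted together with edgeR 4.0.16 in R 4.3.3, using TMM factors, its expression filter and the quasi-likelihood test with Benjamini-Hochberg adjustment at 0.05. The bulk fit was tested on simulated counts, for Ins1-RFP+ against Ngn3-high cells. DESeq2 1.42.0, total-count scaling, no filter, the replicate number as a block and each library left out were alternatives, as were other thresholds, pseudocounts and subsets of cells for the split. Promoters came from RefSeq on GRCm38.p6, and 53 of 71 named genes matched. Some items of the gene lists are not reported here.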

Additional observations from a re-analysis of the deposited data

Results flagged for a closer look

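Named genes with opposite directions in the 2 genotypes were Sst, Ppy and Fev. Sst, the hormone of delta cells, had a log2 ratio of later to earlier cells of -0.43 in WT and 0.52 in Jmjd3-deleted cells. Ppy, pancreatic polypeptide, had ratios of 0.81 in WT and -1.63 in deleted cells, with 5 of 49 earlier and 4 of 40 later cells at 10 CPM or more. Fev had ratios of -0.34 in WT and 0.42 in deleted cells. These differences between genotypes were not tested, since each genotype is 1 sample.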

How the results depend on the processing

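Of 172 recomputed counts and shares, 153 stayed close to the reported value and 19 moved. The single-cell counts were 464 genes higher and 335 lower in later cells, and became 930 and 669 by the mean difference of log2 values per cell, 847 and 662 in deleted cells alone, 782 and 622 without title number 1, 988 and 694 with a level filter of 5 CPM and 1604 and 1151 with none. With the Neurog3 threshold at 2000 CPM, 189 genes were lower, and the later share was 78.4% in WT and 63.2% in deleted cells. A hormone gene at 100 CPM was held by 10 earlier and 13 later cells, and one at 5000 CPM by 0 and 0. Directions turned for Ghrl (-2.07 at a Neurog3 threshold of 500 CPM), Numbl (0.053) and Mcm3 (0.33) at 2000 CPM, and Pyy (-0.34 without title number 5). The cause of these shifts was not tested.

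In bulk, leaving out 1 library at a time gave 193 to 224 of the later-higher genes higher and 212 to 236 of the later-lower genes lower in Ins1-RFP+ cells, with 13 to 18 of the latter higher. Same-numbered libraries shared a number only, with correlations of their deviations from the group means of 0.067, 0.093 and 0.030. With the replicate number as a block, 4118 genes were higher and 4053 lower in Ins1-RFP+ than in Ngn3-high cells, and 4532 higher and 4835 lower in Ngn3-high than in Ngn3-low cells. The block counts for the split's genes were 225 of 464 higher and 242 of 335 lower. Of 1420 recomputed bulk fold changes of named genes, 1346 kept their call or lack of one, 36 lost the call and 38 gained it. A change of sign in a gene called in neither fit was counted as kept. Single-cell genes under 20 CPM in both classes were left out of the reported counts. A group reduced to 1 library was assumed to vary like the others.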

Other observations

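The unfolded protein response list, with 0 of 14 genes past 2-fold between earlier and later cells, differed in bulk. Of these genes, which expand the folding capacity of secretory cells, 13 were higher and 0 lower in Ins1-RFP+ than in Ngn3-high cells by edgeR's quasi-likelihood test, beside 26.1% and 24.9% of all genes, and 3 of 14 were higher in Ngn3-high than in Ngn3-low cells. Beside 27.7% higher and 30.2% lower of all genes in Ngn3-high against Ngn3-low cells, all 30 cell division genes were lower in Ngn3-high than in Ngn3-low cells, and 17 were higher and 4 lower in Ins1-RFP+ than in Ngn3-high cells. Of 24 granule membrane and exocytosis genes, all 24 were higher in Ngn3-high than in Ngn3-low cells. The Ngn3-low and Ins1-RFP+ libraries held markers of other cell types, whose part in these counts was not tested.

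Levels of some transcripts were much higher in the bulk Ngn3-high libraries than in the Neurod1-positive single cells. Gcg, the glucagon gene, stood at 1012 ± 198 CPM (SD, n = 2) in bulk Ngn3-high cells and at 2.59 and 1.63 CPM in earlier and later cells. Peg10 stood at 5579 ± 642 CPM in bulk and at 0.517 and 164 CPM in the cells, and Ghrl at 152 ± 45.9 CPM in bulk and at 0 and 4.43 CPM in the cells. Library kits differed between the single cells and the bulk samples, and the part of the kit in these differences was not tested.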
